A study of Mus musculus with 6 samples.

Results

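The dual-specificity MAP kinase phosphatases are the 10 enzymes Dusp1, Dusp2, Dusp4, Dusp5, Dusp6, Dusp7, Dusp8, Dusp9, Dusp10 and Dusp16. Their rows were taken by gene symbol from a table of 39179 genes, and each symbol matched 1 row. Of the 10 genes, 8 reached 0.5 RPKM (reads divided by the length of the gene and by the total of the library) in at least 2 of the 6 libraries and were tested. Over the series, 14264 genes reached it, of which 14261 had a test for PTH against vehicle and 14255 in the other comparisons. Dusp2 and Dusp9 did not reach this level and are given by their values. A difference passed the test, and the gene is named as called, where limma on log2(RPKM + 0.1) gave an adjusted p under 0.05 over all tested genes together with a change of more than 2-fold. The family was selected on the RPKM differences of these same 6 libraries, since it was picked with the values of all 3 comparisons known. The fold changes and adjusted p-values of its members therefore describe these libraries and are not independent evidence that the family responded.

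MAP kinase phosphatases switch MAP kinases off by removing phosphate from both the threonine and the tyrosine of the activation loop. They differ in their substrates. Dusp5, Dusp6, Dusp7 and Dusp9 act mainly on ERK, Dusp8, Dusp10 and Dusp16 act mainly on the stress-activated kinases JNK and p38, and the nuclear enzymes Dusp1, Dusp2 and Dusp4 act on several MAP kinases. Many of these genes are themselves transcribed in response to the kinases they turn off, which makes them feedback inhibitors. In osteoblasts and osteocytes, parathyroid hormone (PTH) acts through a G protein-coupled receptor that raises cyclic AMP, and the salt-inducible kinases (SIKs) lie downstream of protein kinase A in that pathway.

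RNA had been sequenced from Ocy454 cells, a mouse osteocytic line that is grown to confluence at 33 °C and then kept at 37 °C, here for 14 days. The 3 conditions were vehicle, 1 nM PTH and 0.5 µM YKL-05-093, a small-molecule SIK inhibitor that also inhibits other kinases, each for 4 h and each in 2 libraries. All 6 libraries come from 1 cell line without a genetic change between conditions, and no label says that the libraries of a condition came from separate cultures, so the p-values measure the spread between these libraries, which may be technical. The library totals, worked back from the steps between RPKM values, ranged from 17505798 to 27983585 reads. All 7 osteoblast-lineage markers, with Runx2, Sp7, Alpl and Pth1r among them, reached 0.5 RPKM, and so did 4 of 8 osteocyte markers (Dmp1, Phex, Pdpn and Bglap), while Sost ranged from 0 to 0.0519 RPKM and Fgf23, Mepe and Dkk1 were at or near 0. The summed osteocyte markers, most of it Pdpn, lay between 62.4 and 84.8 RPKM in the vehicle libraries, between 190.8 and 203 RPKM in those with PTH and between 109.8 and 111 RPKM in those with YKL-05-093. Pdpn and Bglap were highest with PTH. Dmp1 did not follow the sum, at 0.643 and 1.16 RPKM in vehicle, 0.689 and 0.723 with PTH, and 0.376 and 0.490 with YKL-05-093. Phex differed widely between replicates, at 1.82 and 0.764, 4.93 and 1.91, and 2.72 and 4.80 RPKM. The summed osteoblast-lineage markers ranged from 979.4 to 1152, from 1115 to 1354 and from 1200 to 1522 RPKM in the same order. Within that list, Sp7 was at 46.0 and 45.5 RPKM in vehicle, 12.2 and 11.1 with PTH, and 22.4 and 29.6 with YKL-05-093, Runx2 was at 19.5 and 13.01, 7.87 and 7.02, and 11.6 and 12.6 RPKM, and Pth1r was at 52.1 and 63.4, 38.5 and 33.4, and 61.4 and 70.7 RPKM. The part of these markers in the results was not tested. The defining markers of haematopoietic (Ptprc, Cd3e), endothelial (Cdh5, Pecam1) and muscle cells (Myod1, Myog) were at or near 0 in all 6 libraries. Of the 20 markers of other cell types, 4 reached 0.5 RPKM (Ctsk, Cd68, Fabp4 and Col2a1). In bulk RNA, fewer cells of a kind and less RNA per cell cannot be told apart.

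Promoter sequences were available for 8 of the 10 members in the RefSeq annotation of GRCm38.p6, as 250 bases before to 50 bases after each start, and 4 stretches are shown. Those of Dusp1, Dusp8 and Dusp5 hold the full cyclic AMP response elements or the CArG boxes described below. Dusp6 is shown because its values differed most between conditions. Dusp2 and Dusp16, which held only the shorter core TGACG, are not shown. Capitals mark motifs, and Dusp6 has none because it held none of those searched.
Dusp1, chr17:26508583-26508672, minus strand: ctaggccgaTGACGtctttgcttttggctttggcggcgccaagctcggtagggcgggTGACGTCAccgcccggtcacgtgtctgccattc
Dusp8, chr7:142095325-142095404, minus strand: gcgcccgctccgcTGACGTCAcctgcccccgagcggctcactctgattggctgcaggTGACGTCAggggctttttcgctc
Dusp5, chr19:53529045-53529104, plus strand: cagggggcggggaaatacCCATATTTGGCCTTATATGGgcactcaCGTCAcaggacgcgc
Dusp6, chr10:99262981-99263230, plus strand: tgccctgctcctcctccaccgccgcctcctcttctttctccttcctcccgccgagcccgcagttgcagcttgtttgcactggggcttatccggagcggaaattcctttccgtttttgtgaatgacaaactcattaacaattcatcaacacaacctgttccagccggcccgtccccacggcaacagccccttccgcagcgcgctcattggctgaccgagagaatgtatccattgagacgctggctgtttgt
The cyclic AMP response element (CRE, TGACGTCA) occurred in Dusp1, at -143 from the start, and in Dusp8, at -107 and -63. Among all 32851 promoters of the table, 1.79% held it. Its shorter core TGACG, searched on both strands and contained in every CRE, occurred in 5 members (Dusp1, Dusp2, Dusp5, Dusp8 and Dusp16) and in 20.8% of all promoters. The CArG box, the site of serum response factor, occurred in Dusp5, at -82 and -72 directly after each other, and in 1.63% of promoters. An AP-1 site (TGANTCA, in 7.81% of promoters) and an ETS site (CCGGAAGT, in 3.89%) were found in 0 of the 8 windows, which says only that these letters were not there. The stretches of Dusp1 and Dusp8 are intronic for a longer transcript of the same gene in the GENCODE M21 annotation, and that of Dusp5 lies in an exon of the antisense gene AC137853.2.

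In vehicle-treated cells, 3 members made up most of the family's mRNA. Dusp7, a cytoplasmic phosphatase of ERK, was at 11.5 ± 0.458 RPKM (SD, n = 2), Dusp10, which acts on JNK and p38, at 9.27 ± 0.275 RPKM, and Dusp6, the ERK-selective cytoplasmic phosphatase, at 9.05 ± 0.279 RPKM. The libraries of Dusp10 and Dusp6 overlapped, so these neighbours in the order did not differ beyond their spread. Dusp1, Dusp5, Dusp16 and Dusp4 followed at 3.17, 2.39, 2.17 and 1.62 RPKM, with overlapping libraries for Dusp5 and Dusp16, and Dusp8 was at 0.611 RPKM. Dusp9 and Dusp2 were lowest, at 0.168 and 0.108 RPKM. RPKM is a level per length, so the order can be read across genes, within the limits of the gene lengths the authors used.

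The order was different after each treatment. After PTH, Dusp10 (9.76 RPKM) and Dusp6 (8.15 RPKM) led, and Dusp7 (4.89 RPKM) stood beside Dusp1 (5.08 RPKM), whose libraries it overlapped. After YKL-05-093, Dusp10 (13.1 RPKM) was followed by Dusp1 (6.25 RPKM) and Dusp7 (5.78 RPKM), which overlapped, and Dusp6 (1.13 RPKM) had dropped to the level of Dusp5 (1.19 RPKM), which it overlapped.

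**Figure D1:**
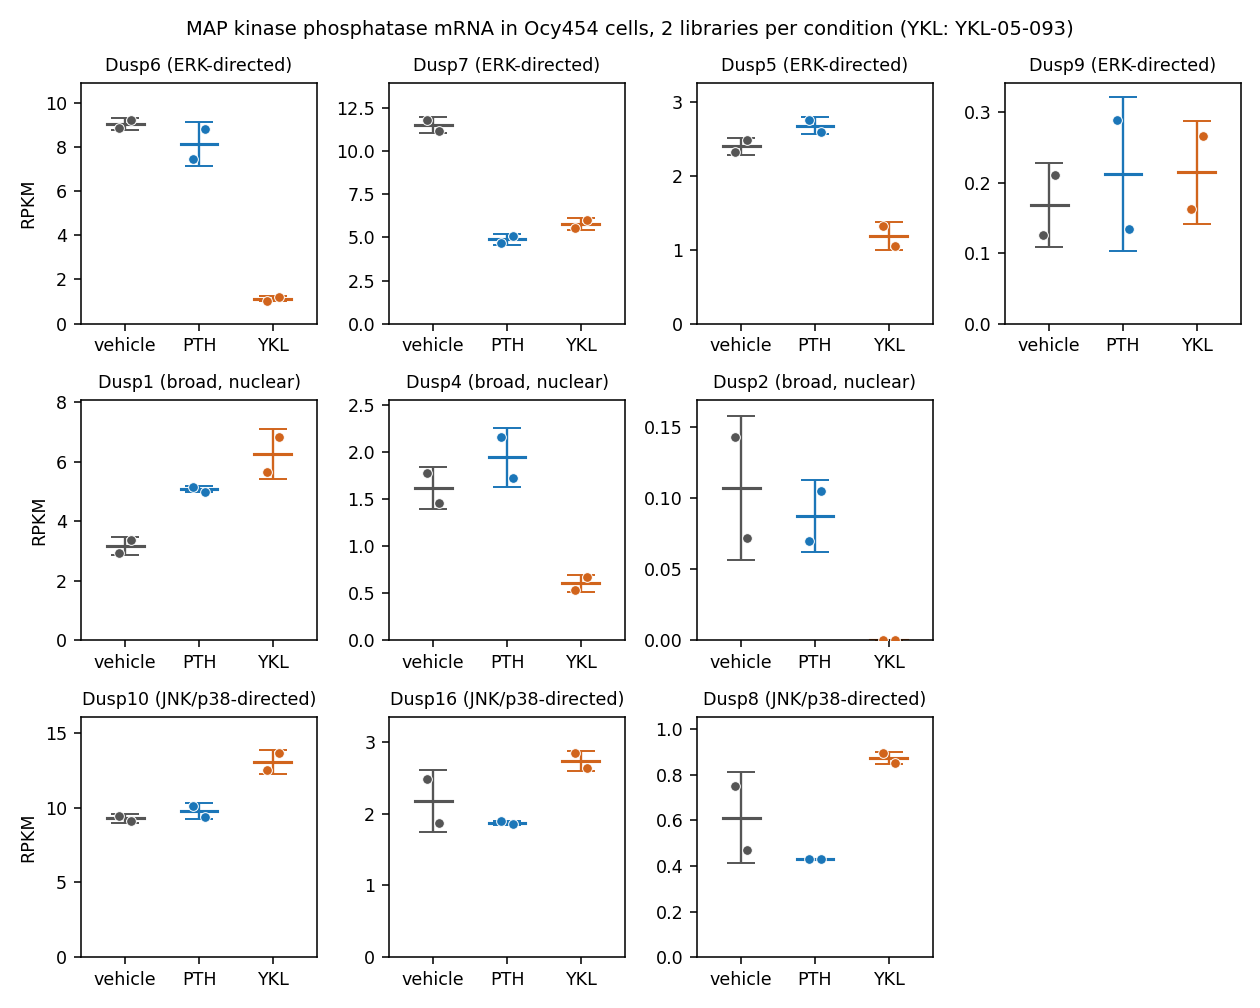
RPKM of the 10 phosphatases (y axis, from 0, with its own range in each panel) in vehicle, PTH and YKL-05-093 libraries; points are libraries, horizontal bars means and whiskers the SD of 2 libraries. Dusp6 sits at 1.04 and 1.23 RPKM after YKL-05-093 against 7.46 to 9.25 RPKM in the other 4 libraries, and Dusp7 between 4.68 and 6.01 RPKM after either treatment against 11.2 and 11.8 RPKM in vehicle.

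Dusp6 (ENSMUSG00000019960, GRCm38 chr10:99263231-99267489, plus strand) was low only in the YKL-05-093 libraries. It had 8.86 and 9.25 RPKM in vehicle, 7.46 and 8.84 RPKM after PTH, and 1.04 and 1.23 RPKM after YKL-05-093, from 433 and 723, 450 and 471, and 59 and 71 reads. The YKL-05-093 libraries did not overlap those of either other condition. The mean was 7.99-fold higher in vehicle than after YKL-05-093. On the log2 scale, Dusp6 fell by 2.90 with YKL-05-093 (SE 0.17, adjusted p = 0.00229 from limma, 95% interval -3.31 to -2.48), the strongest difference from vehicle in the family. PTH gave -0.15 (95% interval -0.54 to 0.23, adjusted p = 0.771 from limma), so an effect of PTH on Dusp6 was not detectable, and the interval reaches from a decrease to a small increase. In the direct comparison, Dusp6 was 7.19-fold higher after PTH than after YKL-05-093 (log2 difference 2.74, SE 0.14, adjusted p = 2.55e-09 from limma).

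Dusp7 (ENSMUSG00000053716, chr9:106368632-106375724, plus strand) was the 1 member that passed the test with PTH. Its values were 11.8 and 11.2 RPKM in vehicle, 4.68 and 5.11 RPKM after PTH, and 5.56 and 6.01 RPKM after YKL-05-093, from at least 318 reads in each library. Both vehicle libraries lay above all 4 treated libraries. Dusp7 fell by 1.22 on the log2 scale with PTH (SE 0.16, adjusted p = 0.0111 from limma, 95% interval -1.59 to -0.85). The YKL-05-093 value was -0.98 (SE 0.16, 95% interval -1.35 to -0.62), with an adjusted p of 0.0565 from limma, which did not pass. Against each other, PTH and YKL-05-093 differed by -0.24 (95% interval -0.45 to -0.02, adjusted p = 0.171 from limma), under the size of either difference from vehicle. Without PTH replicate 1 the difference was -1.16 with an adjusted p of 0.0938 from limma, and without the filter it was -1.22 with an adjusted p of 0.0676, so the call was lost at about the same size of change. With each vehicle or YKL-05-093 library left out in turn, the YKL-05-093 value of Dusp7 ranged from -1.04 to -0.93. Whether it passed depended on the library left out, in fits that take the lone library of a condition to vary like the others.

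Dusp5 (ENSMUSG00000034765, chr19:53529109-53542431, plus strand), a nuclear phosphatase of ERK, was, like Dusp6, lowest in the YKL-05-093 libraries. It had 2.31 and 2.47 RPKM in vehicle, 2.76 and 2.59 RPKM after PTH, and 1.32 and 1.05 RPKM after YKL-05-093. The 3 conditions did not overlap, with PTH above vehicle and vehicle above YKL-05-093. Neither difference from vehicle passed. The log2 value was 0.15 for PTH (limma, adjusted p = 0.787) and -0.96 with YKL-05-093 (limma, adjusted p = 0.138). Between the treatments, Dusp5 was 2.25-fold higher after PTH (log2 difference 1.12, SE 0.18, adjusted p = 0.0004 from limma). Without YKL-05-093 replicate 2 this difference was 0.97, under the 2-fold limit. With each vehicle or YKL-05-093 library left out in turn, the YKL-05-093 value against vehicle ranged from -1.11 to -0.81. Whether it passed depended on the library left out. An exon of the antisense gene AC137853.2 shares 547 bases with the exons of Dusp5, and the strand setting of the counting is not stated, so reads of both genes cannot be told apart.

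Dusp9 (ENSMUSG00000031383, chrX:73639419-73643514, plus strand), the remaining ERK-directed member, was near the limit of detection. Its values ran from 0.126 to 0.289 RPKM over the 6 libraries, from 6 to 17 reads, and all 3 conditions overlapped. A difference between conditions was not detectable at this depth.

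Among the nuclear phosphatases with several substrates, Dusp1 and Dusp4 stood on opposite sides of vehicle after YKL-05-093. Dusp1 (ENSMUSG00000024190, chr17:26505590-26562128, minus strand), an immediate-early gene, had 2.95 and 3.38 RPKM in vehicle, 5.15 and 5.00 RPKM after PTH, and 5.66 and 6.84 RPKM after YKL-05-093, from 194 to 533 reads. All 4 treated libraries lay above both vehicle libraries. The log2 values were 0.67 for PTH (SE 0.16, 95% interval 0.29 to 1.05, limma, adjusted p = 0.109) and 0.96 with YKL-05-093 (SE 0.18, 95% interval 0.54 to 1.38, adjusted p = 0.0887 from limma), and neither passed. With each vehicle or YKL-05-093 library left out in turn, the YKL-05-093 value ranged from 0.82 to 1.09. Whether it passed depended on the library left out. The treatments differed by -0.29 (PTH minus YKL-05-093, 95% interval -0.51 to -0.07, adjusted p = 0.0915 from limma). Exons of Ergic1 on the opposite strand share 11 bases with those of Dusp1. The CRE at -143 shown above was the 1 full site in its window.

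Dusp4 (ENSMUSG00000031530, chr8:34807297-34819894, plus strand) had 1.77 and 1.46 RPKM in vehicle, 2.17 and 1.72 RPKM after PTH, and 0.541 and 0.670 RPKM after YKL-05-093, from 30 to 128 reads. PTH and vehicle overlapped, and both YKL-05-093 libraries lay below the rest. The log2 value for YKL-05-093 against vehicle was -1.29 (SE 0.24, 95% interval -1.85 to -0.72), over 2-fold, with an adjusted p of 0.0881 from limma that did not pass. Leaving out each vehicle or YKL-05-093 library in turn gave values from -1.42 to -1.15. Whether they passed depended on the library left out, in fits that take the lone library of a condition to vary like the others. PTH gave 0.25 (adjusted p = 0.708 from limma). In the direct comparison, Dusp4 was 3.21-fold higher after PTH (log2 difference 1.53, SE 0.21, adjusted p = 0.00011 from limma).

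Dusp2 (ENSMUSG00000027368, chr2:127336159-127338376, plus strand), known mainly from lymphocytes, had 5 and 4 reads in vehicle, 3 and 4 after PTH, and 0 in both YKL-05-093 libraries. A count of 0 allows up to 3 reads, which is 0.0743 and 0.0726 RPKM in the YKL-05-093 libraries, against 0.143 and 0.0718 RPKM in vehicle. These floors cover counting error only, and a difference was not detectable.

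The JNK and p38-directed phosphatases had their highest values after YKL-05-093. Dusp10 (ENSMUSG00000039384, chr1:184013302-184075636, plus strand) had 9.46 and 9.08 RPKM in vehicle, 10.1 and 9.39 RPKM after PTH, and 12.5 and 13.6 RPKM after YKL-05-093. Vehicle and PTH overlapped, and both YKL-05-093 libraries lay above the other 4. Dusp16 (ENSMUSG00000030203, chr6:134715468-134792625, minus strand) had 2.48 and 1.87 RPKM in vehicle, 1.89 and 1.86 RPKM after PTH, and 2.84 and 2.64 RPKM after YKL-05-093. Its vehicle libraries were far apart, and the lower one lay between the PTH libraries, with YKL-05-093 above both conditions. Dusp8 (ENSMUSG00000037887, chr7:142079490-142095843, minus strand), which carries the pair of CREs shown above, had 0.752 and 0.470 RPKM in vehicle, 0.428 and 0.431 RPKM after PTH, and 0.892 and 0.853 RPKM after YKL-05-093, from 40 to 88 reads. PTH lay below vehicle and YKL-05-093 above it, without overlap. Dusp8 reached the level for testing through its YKL-05-093 libraries and 1 vehicle library. Exons of Gm32786 on the opposite strand share 66 bases with those of Dusp8.

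For these 3 genes, no difference from vehicle passed. Against vehicle, YKL-05-093 gave log2 values of 0.49 for Dusp10 (95% interval 0.12 to 0.85, adjusted p = 0.374 from limma), 0.33 for Dusp16 (95% interval -0.11 to 0.77, adjusted p = 0.747 from limma) and 0.48 for Dusp8 (95% interval -0.12 to 1.08, adjusted p = 0.717 from limma). The intervals of Dusp16 and Dusp8 include 0. PTH gave 0.07, -0.19 and -0.40, all with adjusted p of at least 0.624 from limma. Between the treatments, all 3 were lower after PTH than after YKL-05-093 at an adjusted p under 0.05, by less than 2-fold in this fit. Dusp8 was tested only because its YKL-05-093 libraries, where it is high, reached the level, so its difference is only a description. The log2 differences were -0.42 for Dusp10 (SE 0.08, adjusted p = 0.00319 from limma), -0.52 for Dusp16 (SE 0.10, adjusted p = 0.0016 from limma) and -0.88 for Dusp8 (SE 0.20, adjusted p = 0.00794 from limma). Dusp8 passed 2-fold with a pseudocount of 0.01 RPKM and in voom on the recovered reads (-1.02), and was then called. The adjusted p was under 0.05 in 8 of 14 alternatives for Dusp8, 11 of 15 for Dusp10 and 12 of 15 for Dusp16. It was highest in 1 fit of all 6 libraries (0.2, 0.288 and 0.299 from limma in this order), and it was also above 0.05 for all 3 without the filter and with the variance trend on the mean value. Leaving out PTH replicate 1 gave 0.0565 for Dusp8, and leaving out PTH replicate 2 gave 0.061 for Dusp8 and 0.0615 for Dusp10 (limma, adjusted p). The vehicle libraries, which do not enter this comparison, were spread more widely than the others, with a median absolute log2 difference between replicates of 0.333 over the tested genes, against 0.108 for PTH and 0.103 for YKL-05-093.

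**Figure D2:**
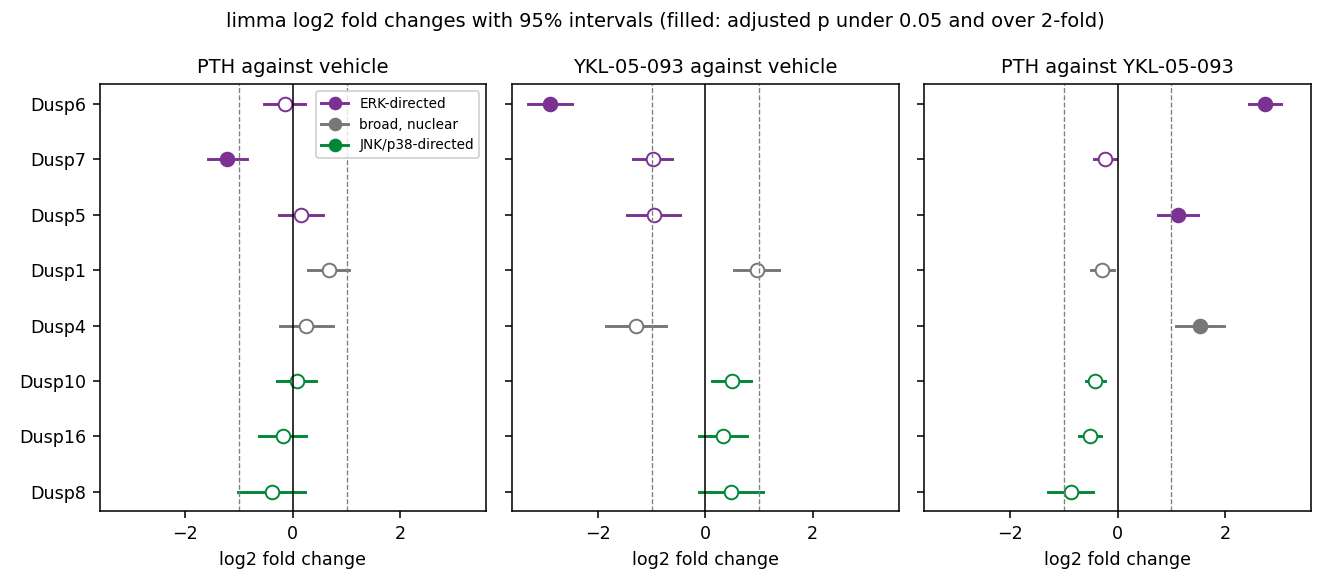
Log2 fold changes (x axis) of the 8 tested phosphatases in the 3 comparisons; lines are 95% intervals from limma, filled points passed the test, dashed lines mark 2-fold and colours the substrate class. With YKL-05-093 the tested ERK-directed genes lie left of 0, from -2.90 to -0.96, and the JNK and p38-directed genes right of it, from 0.33 to 0.49.

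Read by substrate, the tested ERK-directed and JNK and p38-directed genes had log2 values on opposite sides of 0 with YKL-05-093. The intervals of Dusp16 and Dusp8 include 0. ERK-directed Dusp9, near the limit of detection, lay above 0 with YKL-05-093 (0.23) when the filter was lifted. With PTH, both medians lay below 0. For YKL-05-093 against vehicle, 1 of 3 tested ERK-directed genes was called lower (Dusp6) and the other two lay below 0, where 0.274% of all genes were called lower, while 0 of 3 JNK and p38-directed genes were called and all 3 lay above 0. The median log2 value was -0.98 for the ERK-directed and 0.48 for the JNK and p38-directed genes, beside -0.04 over all genes tested. The 0.48 is the value of Dusp8, which was tested only because its YKL-05-093 libraries reached the level, and without it, with a filter of 1 RPKM, the median was 0.41. The medians are therefore a description of the tested members. For PTH against vehicle, 1 of 3 ERK-directed genes was called lower (Dusp7), where 0.813% of all genes were, and 0 of 3 of the others, with medians of -0.15 and -0.19 beside -0.03 over all genes. For PTH against YKL-05-093, 2 of 3 ERK-directed genes were called higher after PTH (Dusp6 and Dusp5), where 0.737% of all genes were, and 0 of 3 of the others, with medians of 1.12 and -0.52 beside 0.01. Dusp7 was the exception in its class there, at -0.24. Leaving out vehicle replicate 2 moved the JNK and p38-directed median for YKL-05-093 to 0.19. For PTH, the ERK-directed median was -0.033 without PTH replicate 1 and -0.28 without PTH replicate 2, and the JNK and p38-directed median was 0.00484 without vehicle replicate 1 and -0.39 without vehicle replicate 2. Both treatments were compared with the same vehicle libraries. The classes were not tested against each other. For the JNK and p38-directed genes, the counts of 0 are from limma, and 0, 1 and 3 of the 3 had an unadjusted p under 0.05 for PTH, YKL-05-093 and the direct comparison.

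Over the family, 1 of 8 tested members was called for PTH, lower, where 1.91% of 14261 genes were called and 0.813% called lower. With YKL-05-093 it was 1 of 8, again lower, where 0.666% of 14255 genes were called and 0.274% called lower. In the direct comparison, 3 of 8 were called, all higher after PTH (Dusp6, Dusp4 and Dusp5), where 1.21% of genes were called and 0.737% called higher. Without a limit on the fold change, 6 of 8 had an adjusted p under 0.05 from limma in the direct comparison, and 9.97% of genes did. Of these, 3 were lower after PTH (Dusp8, Dusp10 and Dusp16), and 5.11% of genes were. Dusp8 counts among the tested members only because its YKL-05-093 libraries reached the level. With a pseudocount of 1 RPKM, the direct differences of Dusp4 and Dusp5 were 0.87 and 0.75 and were not called, nor were they without the filter on low values (limma, adjusted p = 0.0599 and 0.0689). Since the family was chosen with these values in view, nothing is read from these shares. The libraries of PTH and vehicle did not overlap for 5 of 8 members, beside 43.0% of all genes, and those of YKL-05-093 and vehicle for 8 of 8, beside 37.8%. With 2 libraries against 2, an exact permutation test of a single gene cannot give a two-sided p below 0.333, and limma therefore borrows its estimate of the spread from other genes.

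Summed RPKM showed how the makeup of the family differed. The ERK-directed genes added up to 23.1 and 23.1 RPKM in vehicle, 15.2 and 16.7 RPKM after PTH, and 8.08 and 8.56 RPKM after YKL-05-093. The JNK and p38-directed genes added up to 12.7 and 11.4 RPKM in vehicle, 12.4 and 11.7 RPKM after PTH, and 16.2 and 17.1 RPKM after YKL-05-093. The PTH libraries were thus intermediate for the ERK-directed sum and within the vehicle range for the other sum. The ratio of the ERK-directed to the JNK and p38-directed sum was 1.82 and 2.03 in the vehicle libraries. It was 1.22 and 1.43 in the PTH libraries, and it was 0.498 and 0.500 in the YKL-05-093 libraries. Without Dusp6, the ERK-directed sum was 14.3 and 13.9 RPKM in vehicle, 7.72 and 7.83 RPKM after PTH, and 7.04 and 7.33 RPKM after YKL-05-093, with both treatments below vehicle. Dusp6 made up 21.8% and 23.4% of the family's summed RPKM in the vehicle libraries, 21.3% and 25.1% with PTH, and 3.42% and 3.70% with YKL-05-093. The share of Dusp10 was 23.3% and 23.0% in vehicle, 28.9% and 26.7% with PTH, and 40.9% and 41.0% with YKL-05-093. The nuclear genes with several substrates added up to 4.87 and 4.91 RPKM in vehicle, 7.39 and 6.83 RPKM after PTH, and 6.20 and 7.51 RPKM after YKL-05-093, most of it Dusp1. A sum is led by its most abundant members, and the sums were not tested.

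**Figure D3:**
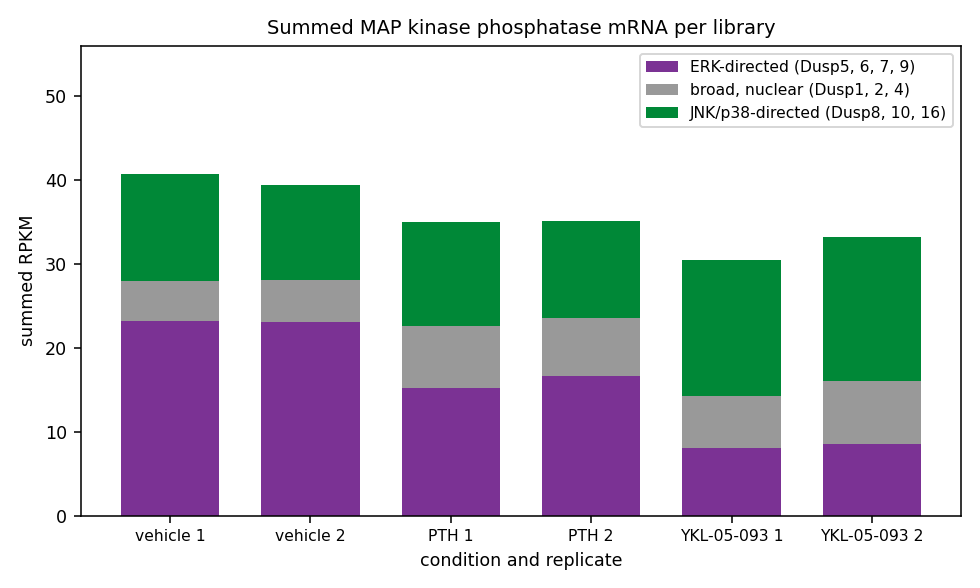
Summed RPKM (y axis, from 0) of the 3 substrate classes in each of the 6 libraries, stacked. The ERK-directed part is 23.1 RPKM in both vehicle libraries and 8.08 and 8.56 RPKM after YKL-05-093, while the JNK and p38-directed part is 16.2 and 17.1 RPKM after YKL-05-093 against 11.4 to 12.7 RPKM in the other libraries.

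The kinases on which the phosphatases act showed no call. Of 8 tested MAP kinases, 0 were called in any comparison by limma, and 0 had an unadjusted p under 0.05, while voom called 0 as well. Over all genes, limma called 1.91% for PTH, 0.666% with YKL-05-093 and 1.21% in the direct comparison. At these shares, 0 calls in lists this short do not set them apart from other genes. Mapk7 and Mapk11, which encode ERK5 and a p38 kinase, had the largest log2 values, -0.27 and -0.23 for PTH. Of 7 MAP kinase kinases, 0 were called by limma or voom, and Map2k3 and Map2k6 had an unadjusted p under 0.05 with YKL-05-093 and in the direct comparison. Map2k6, an activator of p38, had 5.09 and 5.35 RPKM in vehicle, 6.69 and 5.78 RPKM after PTH, and 8.93 and 8.96 RPKM after YKL-05-093, with a direct log2 difference of -0.52 (adjusted p = 0.00109 from limma). Map2k3, which also activates p38, had a direct log2 difference of 0.27 (adjusted p = 0.0214 from limma), in the other direction.

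Phosphatases outside the family were not called either, which at the same shares over all genes does not set these short lists apart. Of 6 other phosphatases of MAP kinases tested, 0 were called by limma or voom and 1 had an unadjusted p under 0.05 in any comparison (Ptpn7). The largest values were those of Ptpn7 (-0.74 with YKL-05-093, limma, adjusted p = 0.414) and Ppm1d (0.20, adjusted p = 0.85). Of 10 genes listed as atypical dual-specificity phosphatases and tested, most of which lack the MAP kinase-binding domain, 0 were called by limma or voom. An unadjusted p under 0.05 was found for 3, 1 and 2 of them for PTH, YKL-05-093 and the direct comparison. Dusp14 and Dusp3 had the largest values, with direct log2 differences of -0.69 (adjusted p = 0.00217 from limma) and -0.67 (adjusted p = 1.93e-05 from limma). Dusp3 was at 10.04 and 7.31 RPKM in vehicle, 5.75 and 5.44 RPKM after PTH, and 9.14 and 8.82 RPKM after YKL-05-093, and its PTH value against vehicle of -0.61 did not pass (adjusted p = 0.226 from limma).

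Genes that ERK signalling is known to induce were listed beside the phosphatases. For YKL-05-093 against vehicle, 5 of 15 tested were called lower and 1 higher, where 0.274% of all genes were called lower, and the median log2 value was -0.91, beside -0.04 over all genes tested. With the variance trend on the mean value and without the filter, 0 of these 6 calls were kept. Those lower were Spry1 and Spry4, Sprouty inhibitors of receptor signalling (-1.98 and -2.56), Etv5, an ETS transcription factor (-1.71), and the immediate-early factors Egr1 and Egr2 (-2.36 and -2.58). Spry4 reached the level for testing only through its vehicle and PTH libraries, where it is high. After YKL-05-093 it was at 0.118 and 0.0841 RPKM, from 11 and 8 reads, so its calls here and between the treatments are only a description. Fos, an AP-1 subunit that cyclic AMP also induces, was the gene called higher (1.53). For PTH, 2 were called lower (Spry1, -1.50, and Egr2, -1.10) and 1 higher (Fos, 1.90), with a median of -0.11, where 0.813% of all genes were called lower. Without the filter, 0 of these were called. In the direct comparison, 6 were called higher after PTH, where 0.737% of all genes were, and 0 lower. They were Spry4 (1.93), Etv5 (1.72), Egr1 (1.59), Fosl1 (1.49), Egr2 (1.48) and Spred2 (1.01). The median of the 15 tested genes was 0.78. There, 3 were called with the variance trend on the mean value and 2 without the filter. Etv5 was at 2.40 and 2.41 RPKM in vehicle, 2.54 and 2.31 RPKM after PTH, and 0.679 and 0.656 RPKM after YKL-05-093. Spry1 was at 4.86 and 5.09 RPKM, 1.89 and 1.51 RPKM, and 1.25 and 1.14 RPKM in the same order, low with both treatments as Dusp7 was.

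Of 10 genes listed as outputs of JNK and p38, 1 was called for PTH, 0 with YKL-05-093 and 1 in the direct comparison. Over all genes, 1.91%, 0.666% and 1.21% were called in the same order. The gene called was the stress-response gene Gadd45a. It was at 1.51 and 1.72 RPKM in vehicle, 8.50 and 7.83 RPKM after PTH, and 3.21 and 3.62 RPKM after YKL-05-093, and it rose with PTH (log2 2.27, adjusted p = 0.00166 from limma) and was higher after PTH than after YKL-05-093 (1.23, adjusted p = 3.07e-06 from limma). Its YKL-05-093 value of 1.03 did not pass (adjusted p = 0.0967 from limma). An unadjusted p under 0.05 was found for 4, 2 and 5 of the 10 for PTH, YKL-05-093 and the direct comparison. Il6 had log2 values of 1.90 for PTH and 1.87 for YKL-05-093, from 3 to 30 reads (adjusted p = 0.0872 and 0.183 from limma). Its vehicle libraries were at 0.158 and 0.330 RPKM, and it was tested only through the treated libraries, so its values are only a description. In the direct comparison, Gadd45b (-0.55), Atf3 (-0.58), Ddit3 (-0.29) and Jun (0.27) had an adjusted p under 0.05 from limma, under 2-fold. The median of the list was 0.04 for PTH and 0.12 for YKL-05-093.

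**Figure D4:**
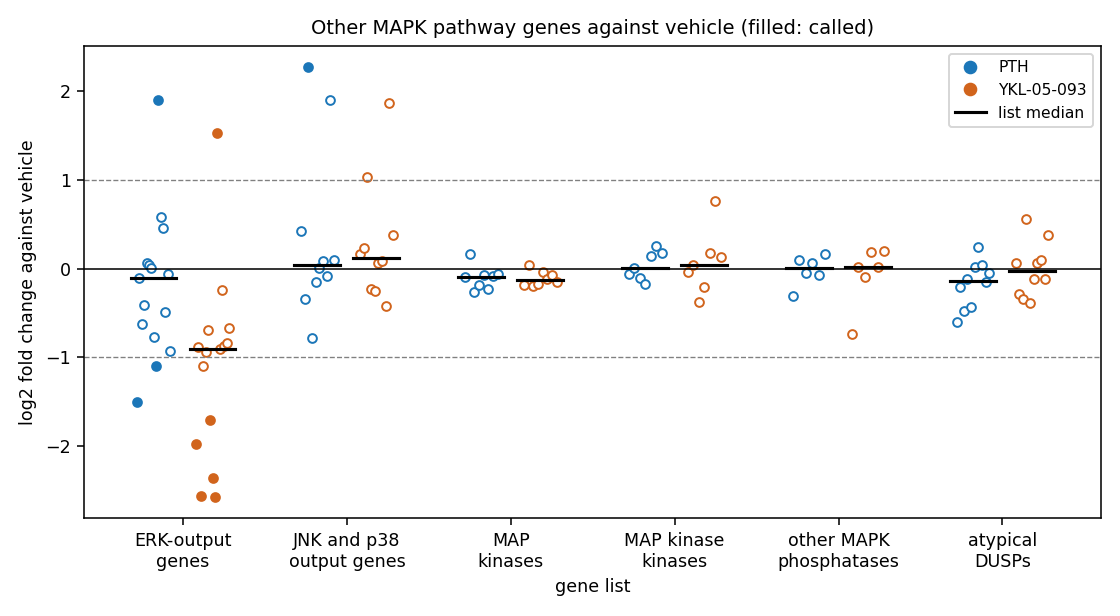
Log2 fold changes against vehicle (y axis) of the tested genes of 6 other MAP kinase pathway lists (x axis) for PTH and YKL-05-093; each point is a gene, filled where it passed the test, and bars are list medians. The ERK-output genes have a median of -0.91 with YKL-05-093 and -0.11 with PTH, and the MAP kinases have medians of -0.13 with YKL-05-093 and -0.09 with PTH.

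The genes whose pattern over the 6 libraries was most like those of Dusp6 and Dusp1 were sought among the 681 tested genes whose mean reached 1 RPKM and whose condition means were at least 2-fold apart. For Dusp6, the highest Pearson r of log2 values were those of mt-Tt (0.995), Csf1, the macrophage colony-stimulating factor (0.992), Nfkbie, an inhibitor of NF-κB (0.992), Etv5 (0.992) and Hmga2, a chromatin protein (0.989). The value of mt-Tt, a mitochondrial tRNA, rests on 0 to 6 reads. Csf1 was at 20.3 and 17.9 RPKM in vehicle, 17.3 and 16.9 RPKM after PTH, and 6.65 and 7.24 RPKM after YKL-05-093. For Dusp1, they were Inhbb, an activin subunit (0.983), the nuclear receptor Nr4a2 (0.982), Rgs2, a regulator of G proteins (0.974), Mrgprf (0.968) and Rasl10b (0.964). Nr4a2 was at 0.819 and 1.05 RPKM in vehicle, 5.49 and 5.13 RPKM after PTH, and 7.26 and 8.62 RPKM after YKL-05-093. Within the family, the r with Dusp6 was 0.956 for Dusp5, 0.954 for Dusp4, 0.38 for Dusp7 and -0.968 for Dusp10. These values describe 6 libraries in 3 conditions, in which all genes share the total of each library, and they were not tested.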

How the data were processed

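RNA was measured in 2 libraries per condition. Per the labels and the study's methods, directional libraries were prepared after removal of ribosomal RNA, STAR placed the reads on the mouse genome (mm10) and HTSeq assigned them to Ensembl genes. CASAVA 1.7 is also named. The authors deposited linear RPKM values that carry no scaling beyond the library total, and the gene lengths behind them are not stated. Reads per gene were worked back from the steps between values. The length of each gene was chosen so that its values came out whole, so the 100% found whole (within 0.01 read) is no check of the reads. In 36.1% of genes above 0, this length equalled the merged exon length less 1 base per exon. At least 99.7% of each total was recovered.

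Each comparison was fitted to its 4 libraries with limma 3.58.1 (R 4.3.3) on log2(RPKM + 0.1), which understates the change of low genes. Genes under 0.5 RPKM in more than 4 libraries were not tested, and neither were genes whose replicates had equal values in both groups. The prior variance followed a trend on recovered reads, in log2, and the Benjamini-Hochberg method was applied over all tested genes. Calls needed an adjusted p under 0.05 and more than 2-fold. Log2 values and their errors are from limma, and folds are ratios of mean RPKM. Scripts were run on simulated data, in which all conditions had the same spread, so the wider spread of the vehicle libraries was not covered.

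The members, gene lists, test and settings were chosen with earlier results of these data known. All 10 members are named. From the other lists, genes called in any comparison are named, or the 2 with the largest log2 value where none was called, and the 5 genes most like Dusp6 and Dusp1. Uncalled JNK and p38 output genes with an unadjusted p under 0.05 are named too. A few listed genes are not reported here by name. Positions are from GENCODE M21 and promoters from RefSeq, both GRCm38. Alternatives were other pseudocounts, filters, variance trends and scaling, voom on recovered reads, 1 fit of all libraries, the replicate number as a block, and leaving out each library. Protein sequences were not used here.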

Additional observations from a re-analysis of the deposited data

How the results depend on the processing

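Of the calls of members, Dusp6 with YKL-05-093 was lost only without the filter on low values (adjusted p = 0.136 from limma) and Dusp6 between the treatments was kept under each alternative run. Without the filter, 0 genes passed for PTH and for YKL-05-093 against vehicle, while 2340 and 1733 had an unadjusted p under 0.05 and voom with the filter called 270 and 108, so Dusp7 with PTH was lost (adjusted p = 0.0676 from limma), and 1 member was called between the treatments, Dusp6. With a pseudocount of 1 RPKM, 1 member was called between the treatments, 98 genes between the treatments and 55 for YKL-05-093. Genes called numbered 160 for PTH and 6 for YKL-05-093 with the variance trend on the mean value, 57 for YKL-05-093 with a filter of 0.1 RPKM, 34 for YKL-05-093 with genes of equal replicate values kept (an alternative added after the data were seen), and 1421 between the treatments with no fold limit, 6 members among them. With 1 fit of all 6 libraries, 173 genes and 2 members (Dusp4 and Dusp6) were called for YKL-05-093 and 102 genes between the treatments.

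The replicate numbers did not pair the libraries (correlations of replicate differences from -0.05 to -0.03). With the replicate number as a block, 440 genes were called for PTH, and 215 genes and 2 members (Dusp4 and Dusp6) for YKL-05-093.

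Leaving out each library in turn gave 189 to 716 genes for PTH, 85 to 373 for YKL-05-093 and 137 to 264 between the treatments, and 0 to 1, 1 to 4 and 2 to 3 members. The ERK-directed median ranged from -0.28 to -0.033 for PTH, -1.11 to -1.01 for YKL-05-093 and 0.97 to 1.26 between the treatments, and the JNK and p38-directed median from -0.39 to 0.00484, 0.19 to 0.53 and -0.57 to -0.48. With a pseudocount of 1 RPKM, the ERK-directed medians were -0.88 for YKL-05-093 and 0.75 between the treatments, and the JNK and p38-directed ones 0.24 and -0.38. Without the filter or with one of 0.1 RPKM, which bring in Dusp9, the ERK-directed medians were -0.00093 for PTH and 0.54 between the treatments, and with a filter of 1 RPKM, which drops Dusp8, the JNK and p38-directed median was -0.47 between the treatments. Dusp16 with PTH, not called, turned to 0.00484 without vehicle replicate 1. Except where a gene enters or leaves, the cause was not tested. Depth limited Dusp2 and Dusp9 in all libraries.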
